A study of Mus musculus with 3 samples.

Results

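The genes described are the mouse small nucleolar RNA (snoRNA), small Cajal body RNA (scaRNA), U RNA and Y RNA genes of a liver microarray study. They were taken by name, as every gene symbol that begins with Snord, Snora, Scarna, Rnu or Rny and a digit, with the highest of its probe sets where a symbol had several. This gave 130 genes of 30921 on the array, of which 73 are Snord, 35 Snora, 9 Scarna, 11 Rnu and 2 Rny genes. The study used 3 MoGene-2_0-st arrays of whole liver from ICR mice, an outbred laboratory stock, with 1 array per group. The EEC+TMA group was dosed by mouth for 2 weeks with a brown alga, Ecklonia cava, as an ethanol extract (EEC), and then exposed to trimethylamine (TMA) for 24 hours. The TMA group received distilled water for 2 weeks and then TMA, and the no treatment group was left untreated. Mice entered the study at 8 weeks of age, and livers were taken at 10 weeks. The question, as the title puts it, is whether the alga can deodorize TMA, which smells of fish. The sources used here do not say whether an array held RNA of 1 animal or of several.

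Box C/D snoRNAs (Snord) base-pair with ribosomal RNA (rRNA) and guide the methylation of its ribose by fibrillarin, and box H/ACA snoRNAs (Snora) guide the conversion of uridine to pseudouridine by dyskerin. A few, such as U3, U8, U14, U17 and U22, are needed for the processing of the rRNA precursor, and scaRNAs guide the same modifications on the spliceosomal RNAs in Cajal bodies. Most vertebrate snoRNAs are cut out of introns of host genes, many of which encode ribosomal proteins or are non-coding Snhg genes, while U3, U8, U13, the minor spliceosomal RNAs and the Y RNAs have promoters of their own. Y RNAs are short RNA polymerase III transcripts bound by the Ro60 and La proteins.

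By position in the files, 112 of the 130 genes lay on the same strand within one of 85 host genes. Host genes of this kind often begin with a C and a run of pyrimidines at the transcription start, the 5′ terminal oligopyrimidine motif of transcripts of the translation machinery. The window from 30 bases before to 30 bases after the start is shown for 6 host genes with such a run and for 2 without, chosen because they hold small RNAs whose values are described below. Capitals mark a C followed by at least 3 pyrimidines that begins within 2 bases of the annotated start, on the gene's strand. The sequences are from RefSeq, build GRCm38.p6.
Snhg12 (host of Snora16a, Snora61, Snora44 and Snord99), chr4:132308648-132308707, plus strand: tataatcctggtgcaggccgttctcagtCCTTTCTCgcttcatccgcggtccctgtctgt
Snhg7 (host of Snora17 and Snora43), chr2:26640215-26640274, minus strand: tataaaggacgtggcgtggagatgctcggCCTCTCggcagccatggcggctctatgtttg
Snhg3 (host of Snora73a and Snora73b), chr4:132353657-132353716, minus strand: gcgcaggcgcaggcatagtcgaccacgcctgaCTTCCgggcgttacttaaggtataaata
2410006H16Rik (host of Snord49a, Snord49b and Snord65), chr11:62602847-62602906, plus strand: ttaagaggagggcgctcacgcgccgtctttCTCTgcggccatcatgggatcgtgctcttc
2700038G22Rik (host of Snord93), chr5:23850567-23850626, plus strand: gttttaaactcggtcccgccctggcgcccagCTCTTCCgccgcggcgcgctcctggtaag
Rpl13a (host of Snord32a, Snord34 and Snord35a), chr7:45128716-45128775, minus strand: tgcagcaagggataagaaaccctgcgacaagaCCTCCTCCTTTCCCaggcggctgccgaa
Eef2 (host of Snord37), chr10:81176601-81176660, plus strand: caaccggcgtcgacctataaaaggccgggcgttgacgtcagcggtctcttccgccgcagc
Nop56 (host of Snord57 and Snord110), chr2:130274382-130274441, plus strand: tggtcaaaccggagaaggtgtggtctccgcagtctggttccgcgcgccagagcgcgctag

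Of the 85 host genes 67 had a start in the RefSeq table, and 19 of these (28.4%) held the run, against 4486 of 27025 genes (16.6%) in the whole table. Among the 22 hosts of genes that were at least 2-fold apart in any comparison, 18 had a start there and 5 of them held the run. A match describes the letters at the annotated start and nothing more. A run further from that start, as in the window of Eef2, was not counted.

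Values are the log2 values that the authors deposited, 1 per probe set and array. Genes were called measured at or above a background level, the 95th percentile of 1541 chemosensory receptor probe sets of the same array, which was 3.16 in EEC+TMA, 3.25 in TMA and 3.15 in no treatment. A gene counted as 2-fold apart where the log2 difference, with values under that level raised to it, was at least 1 in size. There was no replicate in any group, so no test could be made, the spread between animals is unknown, and each difference compares 2 arrays and not the conditions. The 3 comparisons share their arrays. Of the 130 probe sets 71 match only their own transcript and 59 also match others, per the files' cross-hybridization column, and values of the latter kind may hold signal of near-identical copies.

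All 7 hepatocyte markers were measured on the 3 arrays, with albumin (Alb) at 13.33 in EEC+TMA, 13.29 in TMA and 13.29 in no treatment. Of these 7 markers 6 were lower and 0 higher in TMA than in no treatment (median −0.13), and 7 were higher in EEC+TMA than in TMA (median 0.32). Of 5 bile duct markers Sox9, Spp1 and Krt7 were measured on all 3 arrays, and Epcam and Krt19 lay below background on each. Of 5 neuronal markers Syt1, Map2 and Rbfox3 were measured on all 3 arrays, and Snap25 and Snrpn lay below background on each. Of 6 endothelial markers 4 were lower and 0 higher in TMA than in no treatment, and their summed linear signal was 1091 in EEC+TMA, 650 in TMA and 977 in no treatment. Of 8 Kupffer cell and macrophage markers 6 were higher and 0 lower in TMA than in no treatment, with sums of 604, 530 and 446 in the same order of arrays. Of 5 stellate cell markers 3 were lower and 0 higher in TMA than in no treatment. Of 3 measured red blood cell markers 2 were lower and 0 higher. Over the 15711 genes of all kinds measured on both of these arrays 5907 were lower and 2992 higher. Between EEC+TMA and TMA 5739 of 15749 genes were higher and 3029 lower. In whole tissue, fewer cells of a type and less RNA per cell cannot be told apart. Control probe sets also differed between the arrays. The median of the 39 poly-A spike-in probe sets was 4.98 in EEC+TMA, 5.76 in TMA and 4.95 in no treatment, and that of 1352 exon control probe sets was 6.49, 6.07 and 6.43. The 25 probe sets of the files' rRNA category had medians of 8.98, 8.76 and 9.25, with 8 higher and 16 lower in TMA than in no treatment. Their part in the results below was not tested.

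Most of the small RNA genes gave a clear signal in liver. In EEC+TMA 117 of 130 were measured, in TMA 114 and in no treatment 115, and 114 were measured on all 3 arrays. Their median was 7.29 in EEC+TMA, 7.47 in TMA and 7.22 in no treatment, against 3.25, 3.30 and 3.25 for all genes. The value was highest on the TMA array for 69 of the 130 genes, on the EEC+TMA array for 24 and on the no treatment array for 13, with ties for the other 24. No treatment was the lowest array for 65 genes. Over all 30921 genes, TMA was highest for 5325, EEC+TMA for 3802 and no treatment for 3445, with ties for the other 18349. No treatment was lowest for 3219 of the 30921. Identical values on all 3 arrays were found for 16 of the 130 genes and for 14275 of 30921 genes on the array. The 13 genes that were not measured on any array included Rnu7, the U7 RNA of histone mRNA 3′ end formation, Rnu5g, a copy of the spliceosomal U5 RNA, and the U6 pseudogene Rnu6-ps2.

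In the TMA liver, 23 of the 130 small RNA genes (17.7%) were at least 2-fold higher than in the no treatment liver and 0 were 2-fold lower. Over all 30921 genes 0.34% were called higher and 0.653% lower by the same rule. The 23 genes made up 21.9% of the 105 genes called higher. Of the 114 small RNA genes measured on both arrays 84 were higher, 12 identical and 18 lower, with a median log2 difference of 0.39. Over the 15711 genes of all kinds measured on both, 2992 were higher, 6812 identical and 5907 lower, with a median of 0. Among genes of all kinds with a mean log2 value of 8 or more, 29 of 1180 were called higher, and the median difference of the 1180 was −0.23. The 1180 include 51 small RNA genes, of which 12 (23.5%) were called higher, with a median difference of 0.56. The median of all genes measured on both arrays with unequal values was −0.13.

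**Figure D1:**
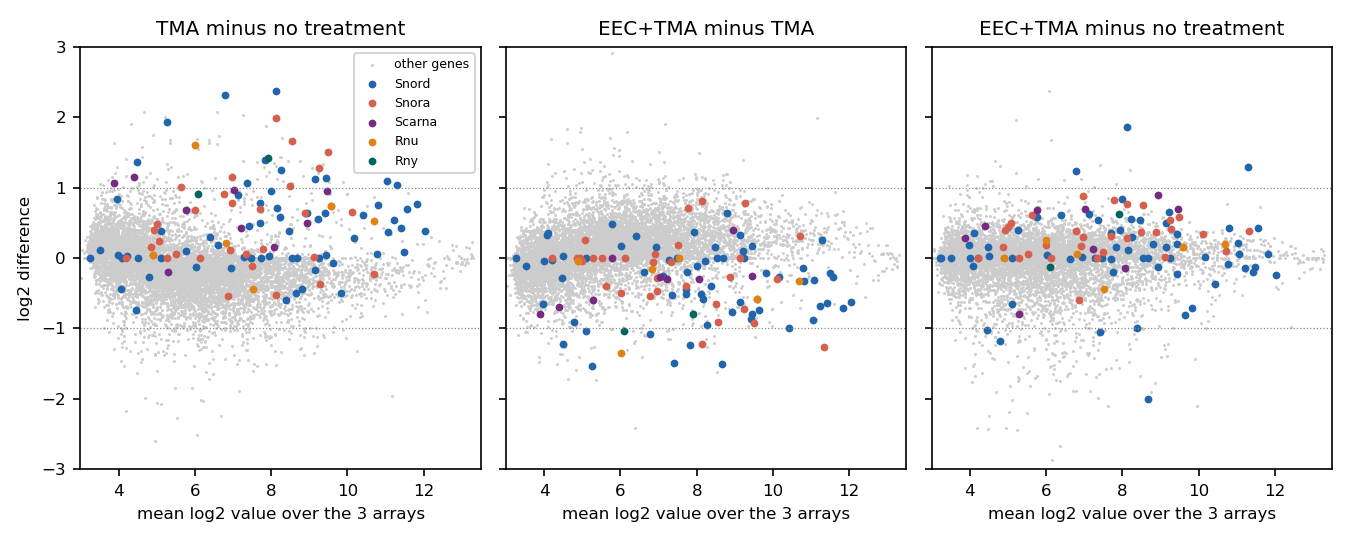
Log2 difference (vertical axis) against the mean log2 value over the 3 arrays (horizontal axis) for genes measured on both arrays of each comparison. Coloured points are the small RNA genes by class, grey points the other genes, and dotted lines a 2-fold difference. In TMA minus no treatment no small RNA gene lies below the lower dotted line and 23 lie above the upper one.

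The class medians of the TMA minus no treatment difference were 0.34 for 64 measured Snord genes, 0.40 for 31 Snora genes, 0.69 for 9 Scarna genes, 0.37 for 8 Rnu genes and 1.16 for the 2 Rny genes. Of the 23 genes called higher 11 were Snord, 8 Snora, 2 Scarna, 1 Rnu and 1 Rny genes, and they lay on 13 chromosomes. Genes whose probe sets match only their own transcript had a median of 0.42 with 12 of 71 called, and the others a median of 0.38 with 11 of 59 called. By length, the median was 0.38 for genes under 100 bases, 0.40 for those of 100 to 150 bases and 0.50 for longer ones. By number of probes, it was 0.69 for the 17 measured genes with 7 to 10 probes, 0.39 for 52 with 11 to 20 probes and 0.22 for 45 with more. The class medians thus lay on the same side of 0, and genes read by few probes had the higher median. The Rnu class mixes kinds of RNA. Its U3 genes Rnu3a, Rnu3b1 and Rnu3b4 stood at 1.60, 0.74 and 0.74, and the snoRNA Rnu73b at 0.52. Of its spliceosomal RNAs, Rnu12 stood at 0.22, Rnu1b1 and Rnu1b6 at 0.04 each and Rnu11 at −0.44.

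Among C/D box snoRNAs, Snord38a had the widest difference. Its log2 value was 8.57 in EEC+TMA, 9.08 in TMA and 6.71 in no treatment, so TMA stood 2.38 above no treatment, a 5.20-fold difference. Snord37, within the elongation factor gene Eef2, had 6.84 in EEC+TMA, 7.92 in TMA and 5.60 in no treatment, 4.99-fold higher in TMA than in no treatment. For both genes no treatment was the lowest of the 3 arrays. Snord93 had 4.88 in EEC+TMA, 6.41 in TMA and 4.48 in no treatment, 3.82-fold higher in TMA than in no treatment, and its probe set of 8 probes also matches other transcripts. Snord72, within Rpl37, had 7.48 in EEC+TMA, 8.72 in TMA and 7.32 in no treatment. Its TMA value stood 2.64-fold above no treatment. For Snord93 and Snord72 the EEC+TMA value lay 0.40 and 0.16 above that of no treatment.

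The remaining Snord genes called higher in TMA than in no treatment were Snord88c (2.58-fold), Snord12 (2.39-fold), Snord49a (2.19-fold), Snord111 (2.18-fold), Snord49b (2.14-fold), Snord2 (2.09-fold) and Snord13 (2.05-fold). All are rRNA modification guides by class except Snord13, the U13 RNA, which in human cells guides the acetylation of a cytidine of small-subunit rRNA. Snord13 had 11.80 in EEC+TMA, 11.55 in TMA and 10.52 in no treatment. It was the only gene of the 23 that was higher in EEC+TMA than in TMA. The probe sets of Snord88c, Snord111 and Snord13 also match other transcripts.

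Of the H/ACA box snoRNAs, Snora17 within Snhg7 had 7.98 in EEC+TMA, 9.20 in TMA and 7.21 in no treatment, 3.96-fold higher in TMA than in no treatment. Snora28, within the translation initiation factor gene Eif5, had 8.50 in EEC+TMA, 9.41 in TMA and 7.74 in no treatment, 3.18-fold higher in TMA than in no treatment. Snora16a within Snhg12 had 11.04 in EEC+TMA, 12.31 in TMA and 10.66 in no treatment, 3.14-fold higher in TMA than in no treatment. In all 3 genes the EEC+TMA value lay between the other 2. Snora5c (2.85-fold), Snora61 (2.42-fold), Snora31 (2.23-fold), Snora73b (2.04-fold) and Snora81 (2.01-fold) completed the class. The scaRNA genes called were Scarna3a (2.23-fold) and Scarna8 (2.10-fold), with values between 3.43 and 5.01 on the 3 arrays, not far above background. With a background at the 99th percentile of the chemosensory probe sets their differences were 0.71 and 0.21, under the 2-fold line. The probe sets of Snora17, Snora5c, Snora61, Snora73b, Snora81 and Scarna3a also match other transcripts.

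Just inside the 2-fold line stood Snora81 at 1.01 and just outside it Scarna13 at 0.97, Snord66 at 0.96 and Scarna2 at 0.95. On the other side, the widest negative differences of TMA minus no treatment were −0.74 for Snord53, −0.60 for Snord68 and −0.54 for Snora20. The authors' deposited table of TMA over no treatment, which begins at 2.51-fold, holds 11 of these small RNA genes among its 198 probe sets, all on the higher side.

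**Figure D2:**
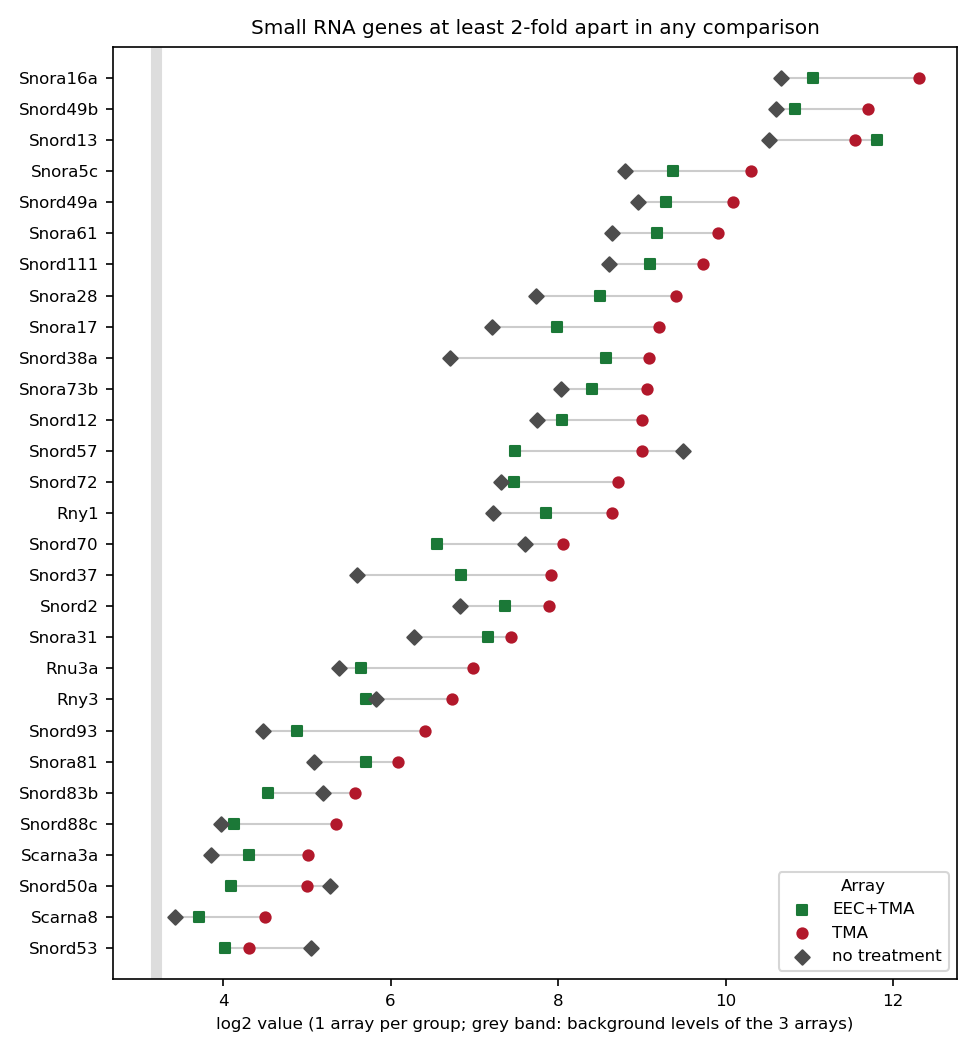
Log2 values of the 29 small RNA genes at least 2-fold apart in any comparison (rows) on the EEC+TMA array (squares), the TMA array (circles) and the no treatment array (diamonds), sorted by the TMA value. The TMA circle is the rightmost of the 3 points in all rows but those of Snord13, Snord57, Snord50a and Snord53, and the grey band marks the background levels of 3.15 to 3.25. The rows were chosen by these same values, which in part fixes the order of the points, so nothing is read from it.

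In the EEC+TMA liver, 11 of the 130 genes were at least 2-fold lower than in the TMA liver and 0 were 2-fold higher, against 0.194% and 0.32% of all genes. The median difference was −0.26 over 114 measured genes, of which 22 were higher, 15 identical and 77 lower, against 0 over all genes. The median of all genes measured on both arrays with unequal values was 0.11. By class the median was −0.26 for Snord, −0.05 for Snora, −0.29 for Scarna, −0.24 for Rnu and −0.91 for Rny genes. This comparison has the TMA array in common with the preceding one.

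The largest differences of EEC+TMA minus TMA were those of Snord93 (2.90-fold lower), Snord57 (2.85-fold lower) and Snord70 (2.82-fold lower). Rnu3a (2.54-fold), Snora16a (2.41-fold), Snord72 (2.36-fold), Snord88c (2.33-fold), Snora17 (2.33-fold), Snord37 (2.11-fold), Snord83b (2.05-fold) and Rny3 (2.05-fold) were the other genes lower in EEC+TMA than in TMA by this measure. Snord57 was the only one of the 11 with a TMA value below no treatment. Snord83b, within Rpl3, had 4.54 in EEC+TMA, 5.58 in TMA and 5.20 in no treatment, and its probe set also matches other transcripts. The authors' deposited table of EEC+TMA over TMA holds 4 of the genes among its 68 probe sets, which are Snord70, Rnu3a, Snord57 and Snord93, all on the lower side.

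The 23 genes called higher in TMA had a median difference of 1.27 in TMA minus no treatment, of −0.79 in EEC+TMA minus TMA and of 0.50 in EEC+TMA minus no treatment. Of these genes 22 were lower in EEC+TMA than in TMA, and all 23 were higher in EEC+TMA than in no treatment, by 0.15 to 1.86. They were chosen by their TMA and no treatment values, which the other 2 comparisons share, so nothing is read from these counts.

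Fewer genes were apart between the EEC+TMA and no treatment livers. Here 3 were at least 2-fold higher and 4 were 2-fold lower, against 0.0841% and 0.569% of all genes, and the median difference was 0.16 over 115 measured genes, against 0 over all genes. Of the 115 genes 73 were higher, 17 identical and 25 lower in EEC+TMA than in no treatment, and 69 were higher and 46 lower when centred on genes with unequal values. The H/ACA genes had a median of 0.35, with 26 of 31 higher and 1 lower, whereas the Snord genes had a median of 0.02, with 34 of 65 higher. The C/D box RNAs with Rnu names are not among these 65. Of them, Rnu3a, Rnu3b1, Rnu3b4 and Rnu73b stood 0.26, 0.16, 0.16 and 0.20 higher. All 7 genes called were C/D box genes. The test of this difference between classes was not made.

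The genes called higher in EEC+TMA than in no treatment were Snord38a (3.63-fold), Snord13 (2.44-fold) and Snord37 (2.36-fold). Those called lower were Snord57 (4.02-fold), Snord50a (2.27-fold), Snord70 (2.06-fold) and Snord53 (2.04-fold). Snord57, a guide within the gene of the C/D box core protein Nop56, had 7.49 in EEC+TMA, 9.0 in TMA and 9.50 in no treatment. Snord70, within the gene of the second core protein of that pair, Nop58, had 6.56 in EEC+TMA, 8.06 in TMA and 7.61 in no treatment, and its probe set also matches other transcripts. EEC+TMA was the lowest array for both. Snord50a, within Snhg5, had 4.09 in EEC+TMA, 5.01 in TMA and 5.27 in no treatment, and Snord53, within Wdr43, had 4.02, 4.31 and 5.05 in the same order. The probe set of Snord50a also matches other transcripts. With the higher background Snord50a stood at −0.97 and Snord53 at −0.75, and after quantile normalization Snord70 stood at −0.99 and Snord53 at −0.997, each short of the line. Just outside the 2-fold line lay Snord68 at −0.99, followed by Snord110 at −0.80, Scarna3b at −0.80 and Snord82 at −0.71, while Scarna6 at 0.90 and Snora31 at 0.88 came next on the higher side.

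**Figure D3:**
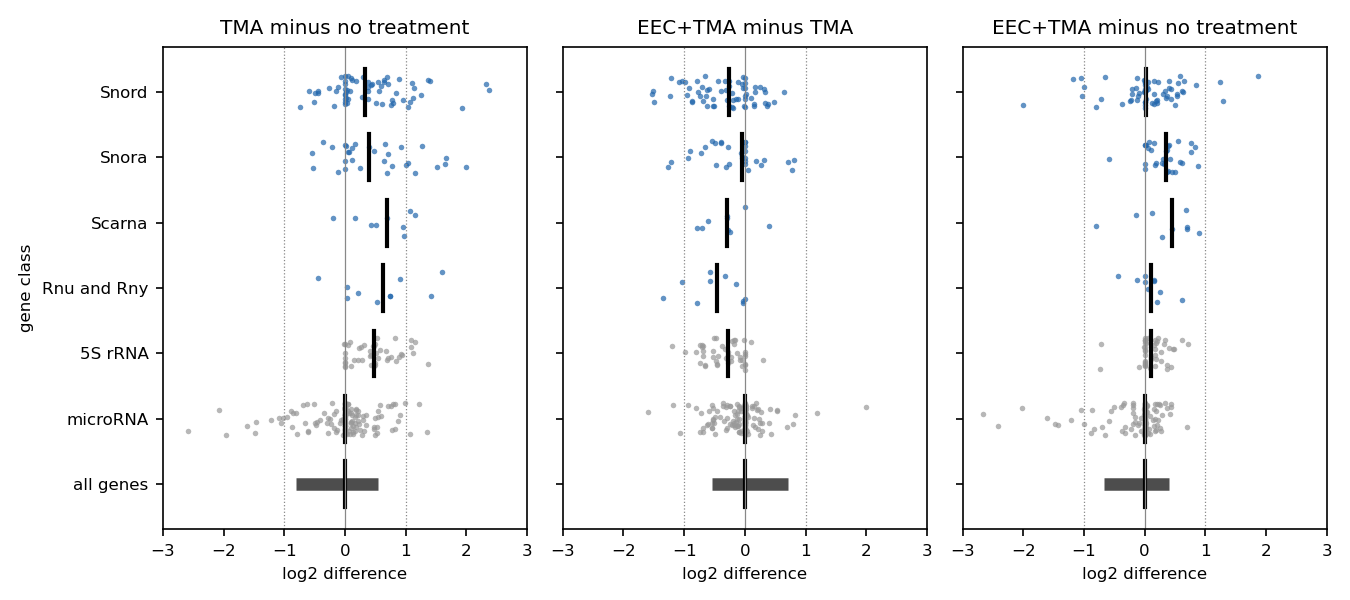
Log2 differences of the 3 comparisons (panels) by gene class for genes measured on both arrays. Points are genes, black ticks the class medians, the bar of all genes spans its middle 95%, and dotted lines mark a 2-fold difference; in TMA minus no treatment the medians of the small RNA classes and of the 5S rRNA genes lie above 0 and those of microRNA genes and of all genes at 0. A microRNA gene measured on 1 array of a pair is not drawn.

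U3, the C/D box RNA that directs the first cuts of the rRNA precursor, was represented by 3 genes. Rnu3a had 5.64 in EEC+TMA, 6.99 in TMA and 5.39 in no treatment, 3.04-fold higher in TMA than in no treatment. Rnu3b1 and Rnu3b4 shared one set of values, 9.44 in EEC+TMA, 10.02 in TMA and 9.28 in no treatment, a difference of 0.74 for TMA minus no treatment. Both probe sets also match other transcripts. They count as 2 genes in the counts given here, although with identical values they are not independent.

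The other rRNA processing RNAs had differences of several sizes. Snord118, the U8 RNA of large-subunit rRNA maturation, had 6.55 in EEC+TMA, 6.75 in TMA and 6.56 in no treatment. The U17 genes Snora73a and Snora73b, both within Snhg3, stood 0.64 and 1.03 higher in TMA than in no treatment. Snord14e, a U14 gene within Hspa8, had 8.00 in EEC+TMA, 8.59 in TMA and 7.88 in no treatment, while the U14 gene Snord14a had 3.21 on every array, near background. Snord22, the U22 RNA within Snhg1, had 11.62 in EEC+TMA, 12.33 in TMA and 11.55 in no treatment, a difference of 0.77 between TMA and no treatment. Each of these genes except Snord14a had its highest value on the TMA array, and among them Snora73b alone passed 2-fold.

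The snoRNAs of Rpl13a are known from mouse and hamster cells as mediators of lipotoxic and oxidative stress. Of these, Snord32a had 11.75 in EEC+TMA, 12.37 in TMA and 11.99 in no treatment, a TMA minus no treatment difference of 0.38. Snord34 had 7.27 in EEC+TMA, 7.29 in TMA and 7.27 in no treatment, and Snord35a had 9.25 on every array. None of the 3 was 2-fold apart in any comparison.

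Of the spliceosomal RNA genes none was 2-fold apart in any comparison. Rnu11 and Rnu12, the U11 and U12 RNAs of the minor spliceosome, had 7.38 and 6.79 in EEC+TMA, 7.38 and 6.94 in TMA, and 7.82 and 6.72 in no treatment. The U1 copies Rnu1b1 and Rnu1b6 shared one set of values, 4.88 in EEC+TMA, 4.92 in TMA and 4.88 in no treatment. Rnu73b, a C/D box snoRNA with a U name that lies beside Snord73a within Rps3a1, had 10.65 in EEC+TMA, 10.97 in TMA and 10.45 in no treatment. Between TMA and no treatment it differed by 0.52 and Snord73a by 0.59.

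Among the scaRNAs, which guide modification of U RNAs, 8 of 9 were higher in TMA than in no treatment. Scarna2 had 9.60 in EEC+TMA, 9.85 in TMA and 8.91 in no treatment. Scarna6 had 9.38 in EEC+TMA, 8.98 in TMA and 8.48 in no treatment. Scarna13 had 7.17 in EEC+TMA, 7.44 in TMA and 6.47 in no treatment, and Scarna9 had 6.0, 6.0 and 5.31. In these 4 genes EEC+TMA and TMA were both at least 0.50 above no treatment. Scarna10 had 7.16 in EEC+TMA, 7.46 in TMA and 7.04 in no treatment, and Scarna17 had 7.93, 8.22 and 8.06. Scarna3b was the only scaRNA gene lower in TMA than in no treatment, by 0.20.

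Both Y RNA genes were highest in the TMA liver. Rny1 had 7.85 in EEC+TMA, 8.64 in TMA and 7.23 in no treatment, 2.67-fold higher in TMA than in no treatment. Rny3 had 5.70 in EEC+TMA, 6.74 in TMA and 5.83 in no treatment, 1.88-fold higher in TMA than in no treatment and 2.05-fold lower in EEC+TMA than in TMA. Rny1 is read with other transcripts and Rny3 is not. The Ro60 gene, named Trove2 in the files, had 4.73 on every array, and the La gene Ssb had 6.43 in EEC+TMA, 6.87 in TMA and 6.95 in no treatment.

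The genes with the highest mean signal in each class, a rank of probe sets and not of RNA amounts, were mostly less than 2-fold apart between arrays. Beyond Snord32a and Snord22 these were Snord104, with 11.62 in EEC+TMA, 11.88 in TMA and 11.19 in no treatment, Snord100 with 11.38, 11.59 and 11.51, and Snord99 with 11.14, 11.77 and 11.34. In the H/ACA class Snora21 had 10.85 in EEC+TMA, 10.53 in TMA and 10.75 in no treatment, Snora34 had 10.13, 10.44 and 9.79, and Snora23 had 9.68, 8.89 and 9.26. Snora21 and Snora23 were thus lowest on the TMA array, unlike Snora16a and Snora5c of the same class. Across all the small RNA genes, however, the median of TMA minus no treatment was larger at higher mean levels. It was 0.06 for genes with a mean under 6, 0.44 for 6 to 8 and 0.56 for 8 or more. The shares called higher there were 11.1%, 17.6% and 23.5%.

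C/D box RNAs of the imprinted cluster on chromosome 7, which is transcribed mainly in neurons, gave no signal above background apart from Snord116l1. This gene had 3.25 on every array, at the background level. Snord64 had 1.52 and Snord107 1.44 on every array. Snrpn, the protein gene at the start of that region, was below background on all arrays. Of the 3 measured neuronal markers, Map2 and Rbfox3 stood 0.30 and 0.29 higher in TMA than in no treatment, and Syt1 stood 0.06 lower.

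A few genes crossed the background level on some arrays only. Snord91a had 3.84 in EEC+TMA, 3.07 in TMA and 3.0 in no treatment and was measured in EEC+TMA alone, at least 1.5-fold higher than in TMA and at least 1.62-fold higher than in no treatment. Snord59a had 3.47 in EEC+TMA, 2.92 in TMA and 3.09 in no treatment, at least 1.16-fold and 1.25-fold higher in EEC+TMA. Neither bound reached 2-fold.

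Because most of the genes lie within introns of others, their values were set beside those of the host genes. For 87 pairs over 64 hosts both were measured. Some hosts counted as measured stood at the background level, such as Snhg1 and Cep295 with 3.25 on every array. An identical value there says little about the host transcript. In TMA minus no treatment the median difference of the small RNAs was 0.42 and that of the 64 hosts was 0, with 22 hosts identical, 14 higher and 28 lower, and none of the hosts was 2-fold apart. The small RNA lay above its host in 66 pairs, level with it in 3 and below it in 18. In EEC+TMA minus TMA the small RNA lay above its host in 20 pairs and below it in 63, with medians of −0.27 and 0. In EEC+TMA minus no treatment it lay above in 55 pairs and below in 23, with medians of 0.19 and 0. Pairs of one host share the host's value. Of the host transcripts, Snhg12 had 3.48 and Nop58 6.24 on every array, and Snhg7, at 3.0, lay below background on all 3.

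**Figure D4:**
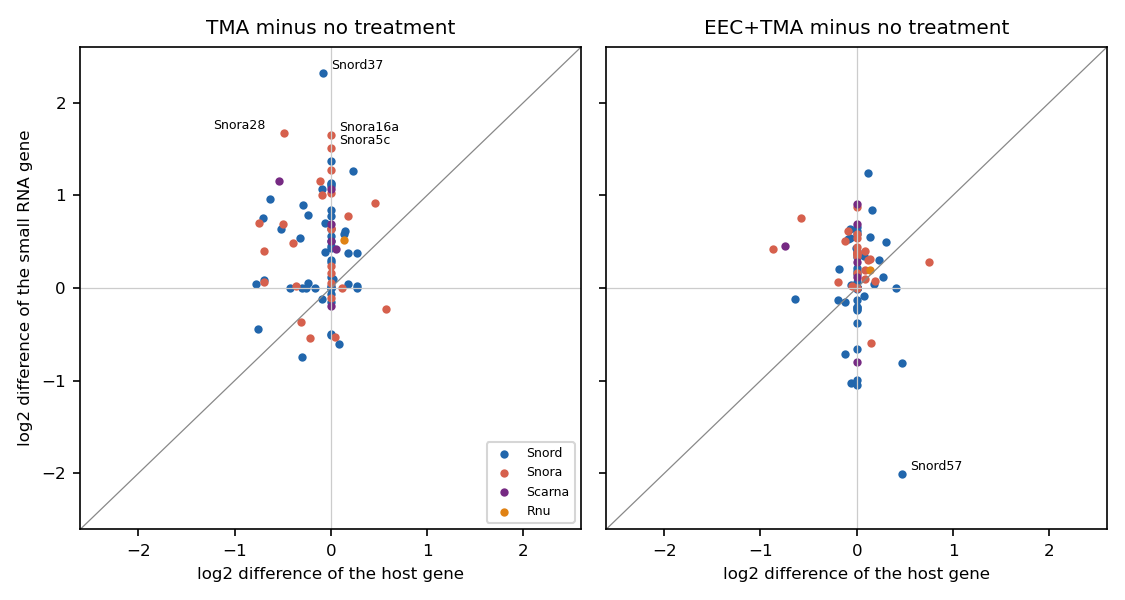
Log2 difference of each small RNA gene (vertical axis) against that of its host gene (horizontal axis) for the pairs measured on both arrays, without the pairs of 1 host that is not shown, for TMA minus no treatment (left) and EEC+TMA minus no treatment (right). The line marks equal differences, and genes past 1.5 in size are named; host differences stay between −0.87 and 0.75 while those of the small RNAs reach −2.01 and 2.32.

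Small RNAs of one host did not always differ by the same amount. In TMA minus no treatment the 21 hosts with more than 1 measured small RNA had a median spread of 0.43 between the lowest and highest of them, and in 5 hosts the spread was 1 or more. Within Snhg12, Snora16a stood at 1.65 and Snora61 at 1.27, but Snord99 at 0.43 and Snora44 at 0.06. Within Snhg7, Snora17 stood at 1.99 and Snora43 at 0. By contrast, Snord2 and Snora81 within Eif4a2 stood at 1.07 and 1.01 with the host at −0.09. Snord49a and Snord49b within 2410006H16Rik stood at 1.13 and 1.10, whereas Snord65 of the same host was identical on all arrays.

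For the C/D box genes that were lower in EEC+TMA than in no treatment, the neighbours within the host varied likewise. Within Nop56, Snord57 stood at −2.01 and Snord110 at −0.80, with the host's containing probe set at 0.47. Within Nop58, Snord70 stood at −1.05 and Snord11 at −0.01, with the host at 0. Within Wdr43, Snord53 stood at −1.03 and Snord92 at 0.03, with the host at −0.06. Within the nucleolin gene Ncl, Snord82 stood at −0.71 and Snora75 at 0.50, with the host at −0.12. The 2 small RNAs of each of these hosts differed from each other by 1.04 to 1.21.

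Genes of the proteins that bind or process these RNAs had medians at or near 0. The 14 genes of C/D box particles and the 11 of H/ACA particles had a median difference of 0 in each comparison, and none was 2-fold apart. In TMA minus no treatment 2 of the C/D box genes were higher and 5 lower, and 0 of the H/ACA genes were higher and 3 lower. Fibrillarin (Fbl), the methyltransferase, had 6.49 in EEC+TMA, 6.15 in TMA and 6.26 in no treatment. Dyskerin (Dkc1), the pseudouridine synthase, had 5.04 in EEC+TMA, 4.85 in TMA and 5.04 in no treatment. The H/ACA protein gene Gar1 had 4.51, 4.07 and 4.07. The Nop56 probe set with the highest values, which also matches other transcripts, differed by 0.59 between TMA and no treatment.

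Of 28 genes of the U3 processome, the complex that assembles on the rRNA precursor, 15 were lower and 1 higher in TMA than in no treatment, with a median of −0.03, where 5907 of 15711 genes of all kinds were lower and 2992 higher. Utp14b was 2.08-fold lower there, with 4.79 in EEC+TMA, 4.46 in TMA and 5.52 in no treatment. Heatr1 had 6.15 in EEC+TMA, 4.99 in TMA and 5.65 in no treatment and was 2.23-fold higher in EEC+TMA than in TMA. The 29 genes of Ro, La and RNA polymerase III had a median of −0.11 in TMA minus no treatment, with 18 lower and 1 higher, to be read beside the same split of all genes. Of these, the polymerase subunit gene Polr3b was 2.13-fold lower, with 6.60 in EEC+TMA, 5.95 in TMA and 7.04 in no treatment. The 34 measured genes of spliceosomal particles had a median of 0 in each comparison, and none was 2-fold apart. The 10 measured non-coding host genes had a median of 0 too, with Snhg6 at 5.25 in EEC+TMA, 4.55 in TMA and 5.26 in no treatment the most different.

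Other structured RNAs outside the 130 genes had medians close to theirs. Of 53 measured genes of this kind, most of them 5S rRNA copies, 44 were higher and 1 lower in TMA than in no treatment, with a median of 0.43, and 5 were called higher. In EEC+TMA minus TMA their median was −0.28 with 45 lower, and in EEC+TMA minus no treatment it was 0.10. The 5S copy n-R5s89 had 8.10 in EEC+TMA, 9.30 in TMA and 7.93 in no treatment, and 5S copies share near-identical sequence. Rmrp, the RNA of RNase MRP, had 11.47 in EEC+TMA, 12.13 in TMA and 11.21 in no treatment, and Rn7sk, the 7SK RNA, had 13.07, 13.22 and 13.07. Telomerase RNA (Terc), itself of H/ACA form, had 5.58 in EEC+TMA, 6.20 in TMA and 5.77 in no treatment.

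Of 559 microRNA genes, short RNAs that repress mRNAs, 148 were measured in TMA and no treatment, with a median difference of 0, 3 called higher (0.537%) and 12 lower (2.15%), beside 0.34% and 0.653% of all genes. Another 1056 genes that the files annotate as snoRNA under other names had 255 measured, a median of 0.02, 25 called higher (2.37%) and 10 lower (0.947%). The 1065 others annotated as small nuclear RNA had 167 measured, a median of 0.11, 17 called higher (1.60%) and 4 lower (0.376%). The percentages of these kinds are of all their genes, most of them not measured, whereas 114 of the 130 genes were measured. They are therefore not on the same footing as the 17.7% called higher of the 130 genes. Differences between these kinds of gene and the 130 genes were not tested.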

How the data were processed

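Liver total RNA (TransZol, 100 mg frozen tissue) was made into biotin-labelled sense cDNA, per the labels' protocols. Each array has a log2 value per probe set, deposited by the authors in 2 tables that differ by at most 5e-05 and used as deposited. They also deposited signed fold lists. The sources used here name neither the normalization nor the genome build. The 130 genes, the gene lists and the tests were chosen with earlier results of these data known.

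Of 41345 probe sets 33793 are main ones. The 130 symbols had 151 probe sets (7 to 36 probes each), and 6 symbols had several. The RefSeq table (GRCm38.p6) holds 126 of them, and 122 overlap its locus. A host is the shortest gene, over all main probe sets with a symbol, that contains the small RNA on its strand, and 1 host is not reported here by name. Genes named are those 2-fold apart, the 5 highest means per class, all Rnu and Rny genes, RNAs of known role and up to 4 genes per list; host families and genes beside a threshold were chosen after their values were seen. No test was made with 1 array per group, whose small number sets the precision. Alternatives were quantile and loess (span 0.3) scaling, centring, other background levels, probe set choice and the second table. Scripts were tested on simulated data, with Python 3.11.15, numpy 2.4.6, pandas 2.3.3, statsmodels 0.14.6 and matplotlib 3.10.9.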

Additional observations from a re-analysis of the deposited data

Results flagged for a closer look

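Control probe sets, which enter no comparison of genes, differed between the arrays. The 39 probe sets for poly-A spike-in RNA, a control added during sample preparation, had a median difference of 0.99 between TMA and no treatment, with 38 higher and 0 lower. Their median difference was −0.99 between EEC+TMA and TMA and −0.07 between EEC+TMA and no treatment. The 23 antigenomic background probe sets had a median difference of 0.05867 between TMA and no treatment, with 12 higher and 0 lower, and of 0 between EEC+TMA and no treatment. Both were singled out because their signal on the TMA array exceeded that on the no treatment array. The 25 probe sets of the rRNA category went the other way, with a median difference of −0.49 between TMA and no treatment, 8 higher and 16 lower. Their part in the small RNA results was not tested.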

How the results depend on the processing

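As a set, the small RNA genes kept the sign of their median in each comparison under the alternatives run. No single gene's 2-fold difference changed sign either. The larger side of the split of all genes did change under some alternatives. Medians by class, level, length or number of probes were not run again. In EEC+TMA minus no treatment, centring on genes with unequal values lowered the differences by 0.03, more than the Snord median of 0.02. In TMA minus no treatment, the median of the small RNA genes was 0.39 as deposited, 0.53 after quantile normalization, 0.58 after loess and 0.52 centred on genes with unequal values, an alternative chosen after seeing the data. The count called higher was 31 after quantile normalization and 31 after loess, and 12 with the 71 unique probe sets alone. All genes split into 105 higher and 202 lower as deposited, 148 and 130 after quantile normalization, 133 and 146 after loess, and 158 and 119 centred on unequal values. In EEC+TMA minus TMA, the median was −0.46, −0.44 and −0.38 under the same 3 settings, and the count called lower was 11 as deposited, 18 after quantile normalization, 20 after loess and 6 with unique probe sets. All genes there split into 99 higher and 60 lower as deposited, 60 and 91, 69 and 85, and 62 and 99. In EEC+TMA minus no treatment, the count called lower was 4 as deposited and 2 after quantile normalization, with a background at the 99th percentile or with unique probe sets. Unique probe sets leave fewer genes; the other causes were not tested. Of the single genes' values that were 2-fold apart, 4 fell under 2-fold with the higher background (Scarna3a, Scarna8, Snord50a, Snord53) and 2 after quantile normalization (Snord70, Snord53). No paired analysis was possible because each group has 1 array. Signal near background limits genes such as Scarna8 and Snord53.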
